A study of Mus musculus with 35 samples.

Results

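Gene expression in the lungs of mice ventilated at low stretch was compared with that of non-ventilated, spontaneously breathing mice, across 19938 genes. The members were chosen by their labels alone and are 10 of the 35 arrays of the series, with 5 arrays in each group and 1 animal per array. Every animal was an adult male C57BL/6J mouse of 20 to 25 g, an inbred laboratory strain, and no transgene or other allele is named. The low stretch, normocapnia mice were ventilated for 3 h with room air and no added CO2, with breaths of 10 mL/kg given 135 times per minute and 2 cmH2O of positive pressure held at the end of each. The non-ventilated mice breathed room air by themselves. The labels describe anaesthesia and tracheostomy for the series as a whole and do not say whether the non-ventilated mice had them, so positive pressure ventilation, surgery, anaesthesia and the hours they take cannot be told apart here. All animals were exsanguinated under anaesthesia and the lungs were lavaged before they were frozen, so cells washed out of the airspaces are not in the RNA. The labels call each animal a biological replicate and give no batch, date, hour of day or pairing.

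The lung holds a large pool of neutrophils that roll along or rest in its capillaries, and its endothelium, epithelium and resident leukocytes all sense pressure, flow and circulating hormones. Neutrophils enter the capillaries when blood and tissue signals such as chemokines, cytokines and adhesion molecules retain them. Glucocorticoids, hormones released under stress, act through a nuclear receptor to raise genes such as Fkbp5 and to redistribute lymphocytes between blood and tissue.

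The values are log2 signals, so a difference of 1 is a doubling, and wherever 5 values stand together they run through replicates 1 to 5 of that group. Array medians lay between 6.999 and 7.043 in the low stretch group and between 6.985 and 7.036 in the non-ventilated group. Each array correlated with the others of its own group at a mean Pearson r of 0.9930 to 0.9944 for low stretch arrays and 0.9878 to 0.9920 for non-ventilated arrays, and 66.6% of genes had the larger SD in the non-ventilated group. On the first principal component, which held 37.3% of the variance, low stretch arrays lay between 6.26 and 27.5 and non-ventilated arrays between -24.5 and -3.35. Non-ventilated replicate 5 lay nearest to the ventilated arrays, and it is given with its own values beside each gene group in which it stood apart. Lung identity was plain in both groups: the surfactant gene Sftpc read 14.10, 14.05, 14.01, 14.03 and 13.97 in low stretch lungs, against 14.03, 14.05, 14.03, 14.04 and 14.06 in non-ventilated lungs. Those ranges overlap and the log2 difference was -0.01 ± 0.04 (SE).

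In all, 2353 genes (11.8%) passed at a limma adjusted p under 0.05, of which 1322 (6.63%) were higher and 1031 (5.17%) lower in low stretch lungs. Rises reached further than falls: 133 genes rose by at least 1 log2 unit and 20 fell by as much, while 1745 of the called genes (74.2%) moved by less than 0.5. The median change of all genes was -0.006. All 5 low stretch arrays lay above every non-ventilated array for 4.65% of genes and below every one for 3.54%. A fit of the 10 compared arrays alone called 1385 genes, 782 higher and 603 lower. Genes were also grouped into 61 lists. The shares to set beside every list count are the 6.63% of all genes called higher and the 5.17% called lower. List counts of 1 or 2 calls depended on single arrays: of 36 such counts, 26 moved by over 1.5 times without some single array.

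**Figure D1:**
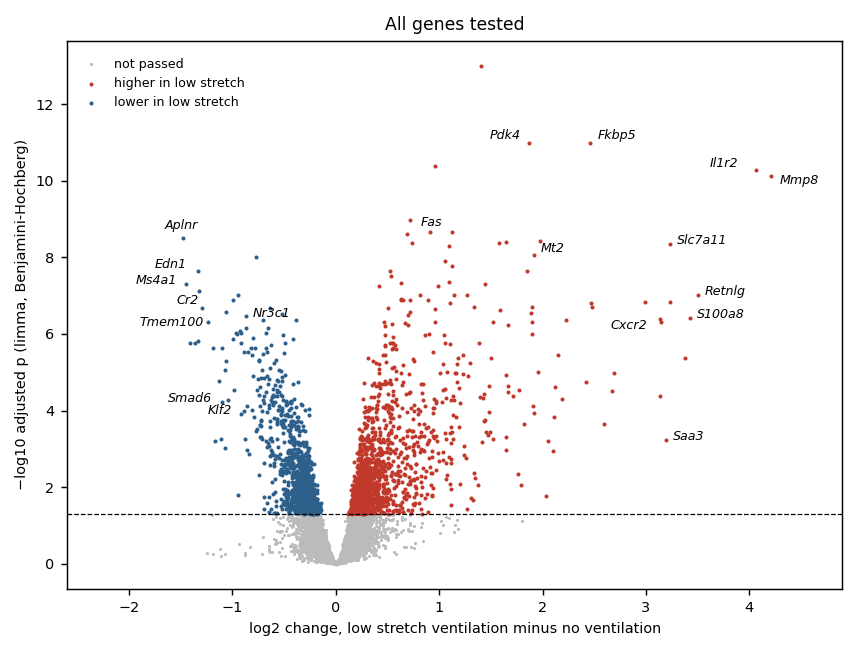
Log2 change (low stretch minus non-ventilated, horizontal axis) against -log10 of the limma adjusted p (vertical axis) for 19938 genes, 1 point per gene, with called genes coloured by direction. The right arm reaches Mmp8 at 4.21 while the left arm ends at Aplnr at -1.48.

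Neutrophil genes filled 12 of the 30 largest rises. The collagenase gene Mmp8 read 11.50, 11.16, 10.48, 11.26 and 10.93 in low stretch lungs, against 6.87, 6.31, 6.09, 6.36 and 8.65 in non-ventilated lungs. The low stretch arrays sat close together and above all others, and non-ventilated replicate 5 was well above the other non-ventilated arrays. The change was 4.21 ± 0.34 (adjusted p 7.64e-11). S100a9, which encodes a calcium-binding protein that makes up much of the neutrophil cytosol with S100a8, read 11.43, 11.17, 10.55, 11.20 and 10.85, against 8.23, 7.19, 6.91, 7.08 and 10.11, a log2 change of 3.14 ± 0.38 (SE, adjusted p 4.16e-07). Csf3r, the receptor for the neutrophil growth factor G-CSF, read 10.36, 10.29, 9.91, 10.44 and 9.94, against 8.49, 7.52, 7.08, 7.34 and 9.80. Here replicate 5 of the non-ventilated group lay only just below the lowest ventilated array, and the change was 2.14 ± 0.30 (adjusted p 3.47e-06).

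Of 32 measured neutrophil genes, 24 rose (75.0%, against 6.63% of all genes), none fell and 8 did not pass, with a median change of 1.14 against -0.006 for all genes. Surface and signalling genes rose in 13 of 14 cases and granule and cytosol genes in 11 of 18. Ly6g, the surface antigen used to sort mouse neutrophils, read 9.39, 9.02, 8.30, 9.36 and 8.64 in low stretch lungs, against 6.33, 5.66, 5.43, 6.62 and 7.30 in non-ventilated lungs, without overlap and with a change of 2.67 ± 0.42 (adjusted p 3.02e-05). The gelatinase gene Mmp9 did overlap: it read 9.01, 8.81, 8.92, 9.46 and 8.77, against 7.51, 7.39, 7.17, 6.52 and 8.92, a change of 1.49 ± 0.29 (adjusted p 0.00037). Among granule genes that immature neutrophils transcribe in bone marrow, some rose and some did not pass. Lcn2 was among the rises and is given with the acute phase genes. Ngp rose, at 9.09, 8.14, 6.79, 8.20 and 7.58 in low stretch lungs, against 5.54, 6.09, 5.98, 6.13 and 5.91 in non-ventilated lungs, a change of 2.03 ± 0.58 (adjusted p 0.0166), which did not pass without low stretch replicate 1 (0.0665). Of 4 others, named after their values were seen, none passed: the myeloperoxidase gene Mpo differed by 0.07 ± 0.12, the elastase gene Elane by -0.02 ± 0.10, the lactoferrin gene Ltf by 0.09 ± 0.16 and the cathelicidin gene Camp by 0.05 ± 0.13, with adjusted p between 0.822 and 0.952.

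The mean of the neutrophil list was 9.78, 9.59, 9.05, 9.49 and 9.27 in low stretch lungs, against 7.92, 7.55, 7.47, 7.55 and 8.63 in non-ventilated lungs. Replicate 5 was the highest non-ventilated array in 19 of the 24 genes that rose, and low stretch replicate 1 the highest ventilated array in 19. Without any 1 array the count of rises stayed between 21 and 24. In bulk tissue a larger number of cells and more RNA per cell cannot be told apart, and likewise fewer cells and less RNA per cell.

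**Figure D2:**
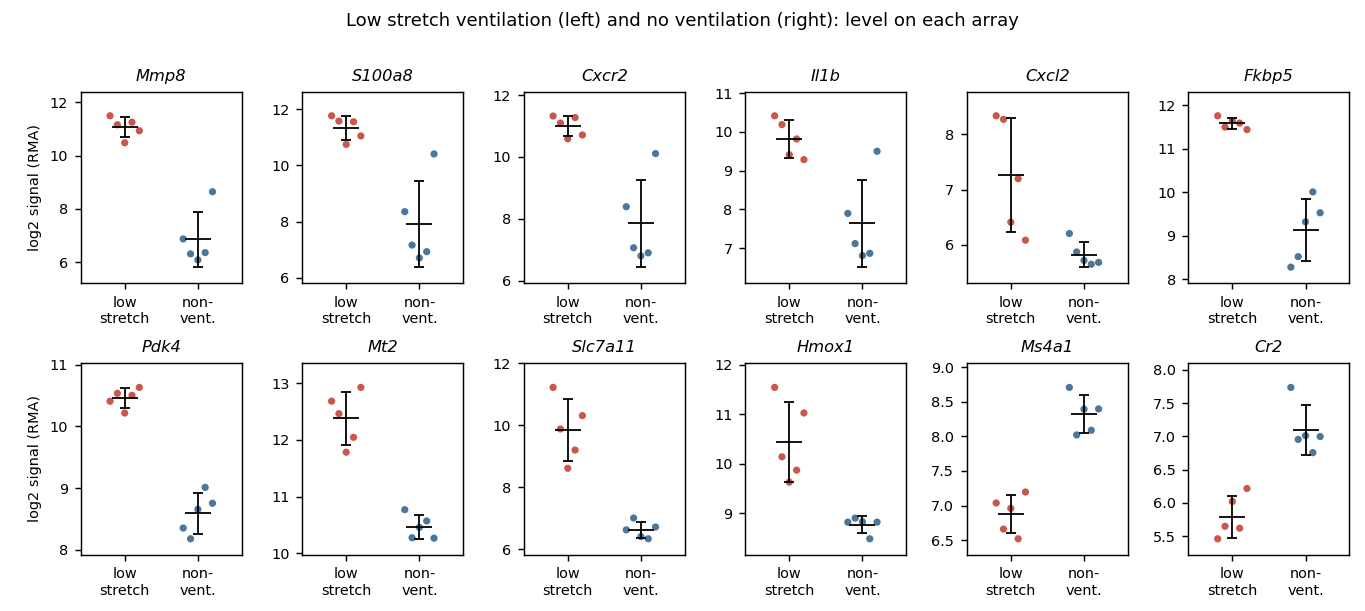
Log2 signal of 12 genes in each array, with low stretch arrays left and non-ventilated arrays right in each panel, and the mean and SD in black. Mmp8, S100a8 and Cxcr2 are far higher in low stretch lungs with 1 high non-ventilated array, Il1b and Cxcl2 spread widely, and Ms4a1 and Cr2 are lower in every low stretch array.

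Of the 8 measured CXC ligand genes none rose, 1 fell (12.5%, against 5.17% of all genes) and 7 did not pass. Cxcl2, a ligand of the neutrophil receptor CXCR2, read 8.33, 8.27, 6.41, 7.20 and 6.08 in low stretch lungs, against 6.20, 5.87, 5.72, 5.65 and 5.68 in non-ventilated lungs. Low stretch replicates 1 and 2 were high, replicate 5 lay within the non-ventilated range, and the change of 1.43 ± 0.49 had an adjusted p of 0.0511. That p was 0.0308 without low stretch replicate 3, 0.0235 without replicate 5 and 0.0434 with the 10 compared arrays alone. Cxcl1, which binds the same receptor, differed by -0.15 ± 0.20 (adjusted p 0.743) and Cxcl5 by 0.35 ± 0.24 (adjusted p 0.44). Cxcl12, which holds leukocytes in marrow and tissue through CXCR4, fell: it read 8.98, 8.83, 8.91, 9.06 and 9.03, against 9.74, 9.52, 9.50, 9.35 and 9.70, a change of -0.60 ± 0.10 (adjusted p 4.26e-05) with no overlap.

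The second neutrophil chemokine receptor gene, Cxcr1, rose by 0.69 ± 0.13 (adjusted p 0.000457), beside Cxcr2, whose levels are in the plot of single genes. Among CC chemokine genes, the receptor Ccr1 of neutrophils and monocytes read 9.33, 9.05, 8.04, 8.78 and 8.99 in low stretch lungs, against 6.33, 5.80, 6.22, 5.78 and 7.95 in non-ventilated lungs, a change of 2.42 ± 0.37 (adjusted p 1.75e-05). The monocyte chemokine genes Ccl2 and Ccl3 and the receptor gene Ccr2 did not pass, with adjusted p of 0.235, 0.364 and 0.101, though Ccr2 did without low stretch replicate 3 (0.0347) or non-ventilated replicate 5 (0.0273). Ccl3 was high in low stretch replicates 1 and 2, at 9.38 and 8.38, against 6.95 to 7.29 in non-ventilated lungs. Of 15 endothelial adhesion genes none rose and 5 fell. E-selectin (Sele, 0.29 ± 0.17), Icam1 (0.00 ± 0.09) and Vcam1 (0.02 ± 0.11), through which activated endothelium captures leukocytes, did not pass, and the count of falls was 3 without low stretch replicate 4 or 5 or non-ventilated replicate 3, or with the 10 compared arrays alone. The growth factor genes Csf3, Csf2 and Csf1 did not pass either, at adjusted p of 0.721, 0.107 and 0.91, with Csf2 at 0.0227 without non-ventilated replicate 5, whereas the shared receptor subunit gene Csf2rb rose by 1.04 ± 0.22 (adjusted p 0.00122).

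Interleukin-1 genes included agonists, antagonists and decoys. Of 18 measured, 9 rose, 1 fell and 8 did not pass. The cytokine gene Il1b read 10.42, 10.19, 9.41, 9.82 and 9.29 in low stretch lungs, against 7.90, 7.12, 6.80, 6.86 and 9.50 in non-ventilated lungs. Non-ventilated replicate 5 was within the ventilated range, and the change was 2.19 ± 0.36 (adjusted p 5.09e-05). Il1r2, which binds interleukin-1 without signalling, read 11.29, 11.11, 10.28, 10.80 and 10.22, against 6.67, 6.49, 5.92, 6.56 and 7.73, with a wide gap between the groups and a change of 4.07 ± 0.32 (adjusted p 5.29e-11).

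The receptor antagonist gene Il1rn read 10.16, 9.79, 8.15, 8.31 and 8.26 in low stretch lungs, against 7.33, 7.27, 7.47, 7.80 and 7.91 in non-ventilated lungs. Low stretch replicates 1 and 2 were high, and the change of 1.38 ± 0.36 (adjusted p 0.00909) did not pass without replicate 1, at an adjusted p of 0.0544. The interleukin-36 gamma gene Il1f9 rose by 2.99 ± 0.34 (adjusted p 1.42e-07) and the interleukin-18 receptor accessory gene Il18rap by 1.28 ± 0.19 (adjusted p 1.23e-05). Il33, an alarmin kept in the nuclei of alveolar type 2 and other structural cells, fell: it read 9.37, 9.62, 9.69, 9.53 and 9.20, against 10.28, 10.36, 10.61, 10.26 and 10.29, a change of -0.87 ± 0.17 (adjusted p 0.000544) with no overlap. Il1a (-0.20 ± 0.16) and Il18 (0.25 ± 0.13) did not pass, and in the inflammasome set Casp4 rose by 1.10 ± 0.29 (adjusted p 0.00826) while Casp1 did not pass (0.57 ± 0.23, adjusted p 0.122).

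In the interleukin-6 group most signalling genes rose and the ligand gene did not pass. Il6 itself read 4.58, 4.53, 4.26, 4.41 and 4.24 in low stretch lungs, against 4.32, 4.54, 4.30, 4.37 and 4.11 in non-ventilated lungs. All 10 values lay far below the array medians and the ranges overlap, with a change of 0.08 ± 0.28 (adjusted p 0.923). Socs3, the feedback inhibitor that STAT3 induces, read 9.75, 9.41, 8.81, 9.11 and 9.03, against 7.82, 7.87, 7.78, 7.73 and 7.75, a change of 1.43 ± 0.23 (adjusted p 3.61e-05). The non-ventilated values were nearly identical and lay far below every ventilated one. Stat3 rose by 0.54 ± 0.11, the receptor gene Il6ra by 0.53 ± 0.09 and Il4ra by 0.95 ± 0.16, all at adjusted p of 0.000701 or less. Over the whole list 11 of 23 rose (47.8%, against 6.63% of all genes) and 1 fell. Of the signalling genes and targets 8 of 11 rose.

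Tnf did not pass (0.36 ± 0.26, adjusted p 0.444), nor did its feedback gene Tnfaip3 (0.31 ± 0.21, adjusted p 0.428). In the TNF and NF-kappaB list 8 of 23 rose (34.8%, against 6.63% of all genes) and 1 fell, and 5 rose without low stretch replicate 1. The inhibitor gene Nfkbia rose by 0.38 ± 0.09 (adjusted p 0.00217). The death receptor gene Fas read at least 10.53 on every low stretch array, with a mean of 10.76, against 9.34, 9.28, 9.94, 9.68 and 9.98 in non-ventilated lungs, a rise of 1.12 ± 0.10 (adjusted p 2.11e-09). The death ligand gene Tnfsf10, which encodes TRAIL, was the fall of the list, at -1.13 ± 0.17 (adjusted p 1.67e-05).

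Of 16 genes of Toll-like and NOD receptors, their co-receptors and signalling partners, 8 rose and none fell, with the formyl peptide receptor genes and Tlr5 not analysed here, and the same counts held for 16 myeloid lectin receptor genes. Tlr13, a sensor of bacterial ribosomal RNA in mice, read 9.93, 9.75, 8.97, 9.51 and 9.69 in low stretch lungs, against 7.83, 7.31, 7.44, 7.14 and 8.66 in non-ventilated lungs, a change of 1.90 ± 0.24 (adjusted p 1e-06). Non-ventilated replicate 5 was again the highest of its group. Tlr6 rose by 1.11 ± 0.21 and the adaptor gene Myd88 by 0.79 ± 0.16, while Tlr2 did not pass (0.59 ± 0.28, adjusted p 0.204). Among lectin receptors, Clec5a rose by 1.76 ± 0.43 (adjusted p 0.00446), and the fungal glucan receptor gene Clec7a did not pass (-0.11 ± 0.15, adjusted p 0.747).

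In the acute phase list 6 of 18 rose (33.3%, against 6.63% of all genes). Saa3, a serum amyloid gene expressed in lung and macrophages, read 11.48, 10.52, 7.82, 8.35 and 9.37 in low stretch lungs, against 6.77, 6.68, 6.35, 5.83 and 5.93 in non-ventilated lungs. The ventilated values spread over more than 3 units yet none reached the non-ventilated range, and the change was 3.19 ± 0.64 (adjusted p 0.000599). The siderophore-binding gene Lcn2 rose by 0.76 ± 0.13 (adjusted p 7.32e-05) and the endotoxin-binding gene Lbp by 0.33 ± 0.07 (adjusted p 0.000596), while the haptoglobin gene Hp did not pass (-0.01 ± 0.08, adjusted p 0.954).

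B cell genes made up 8 of the 30 largest falls, and 21 of the 26 measured fell (80.8%, against 5.17% of all genes) while none rose. Their median change was -0.60, against -0.006 for all genes. Ms4a1, the gene of the surface antigen CD20, read 7.04, 6.66, 6.96, 6.52 and 7.20 in low stretch lungs, against 8.71, 8.02, 8.39, 8.09 and 8.40 in non-ventilated lungs. Cd79b, a signalling chain of the B cell receptor, read 7.69, 7.44, 7.99, 7.44 and 7.92, against 9.29, 8.65, 8.62, 8.68 and 8.53. Neither gene had an overlap between groups. The change of Ms4a1 was -1.45 ± 0.16 (adjusted p 5.03e-08), and Cd79b fell by 1.06 on the log2 scale (SE 0.13, adjusted p 2.68e-07).

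The lineage factor gene Pax5 fell by 0.91 ± 0.12 (adjusted p 1.67e-06), the kinase gene Blk by 0.87 ± 0.11 (adjusted p 7.14e-07) and Cxcr5, the receptor that guides B cells to follicles, by 0.79 ± 0.14 (adjusted p 0.000146). The mean of the B cell list was 7.09, 6.99, 7.22, 7.04 and 7.34 in low stretch lungs, against 8.20, 7.83, 7.73, 7.69 and 7.74 in non-ventilated lungs. Replicate 1 was the highest non-ventilated array in 18 of the 21 genes that fell, and the groups did not overlap. Of 21 T cell genes 7 fell (33.3%, against 5.17% of all genes) and 14 did not pass. The falls numbered 4 without non-ventilated replicate 1 and 2 with the 10 compared arrays alone. The homing receptor gene Ccr7 fell by 0.59 ± 0.13 (adjusted p 0.00187) and Cd8a by 0.40 ± 0.10 (adjusted p 0.0079, and 0.0856 with the 10 compared arrays alone), while the T cell receptor subunit gene Cd3e did not pass (-0.18 ± 0.10, adjusted p 0.264).

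Of 16 natural killer and innate lymphoid genes 2 fell, and 1 without low stretch replicate 3 or 4 or non-ventilated replicate 2. Klrb1c, the mouse NK1.1 antigen, did not pass (-0.06 ± 0.15, adjusted p 0.879). The list still leaned downward, with a median change of -0.27, against -0.006 for all genes. Its mean was lower in every low stretch array than in any non-ventilated array, as were 5 of its 16 genes. Limma's p before adjustment was under 0.05 in 9 of the 16, against 4608 of all 19938 genes. In the dendritic cell and MHC class II list 10 of 21 fell (47.6%, against 5.17% of all genes). The falls numbered 5 without non-ventilated replicate 1 and 6 without replicate 2. The class II transactivator gene Ciita read 6.93, 6.88, 6.95, 6.86 and 7.36 in low stretch lungs, against 8.12, 8.18, 7.66, 7.47 and 7.36 in non-ventilated lungs, a change of -0.76 ± 0.14 (adjusted p 0.000305). H2-Ob, a class II modifier expressed mainly in B cells, fell by 1.10 ± 0.15 (adjusted p 2.33e-06). The dendritic cell growth factor receptor gene Flt3 did not pass (0.22 ± 0.11, adjusted p 0.212).

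Among other blood and tissue leukocytes the monocyte list held most calls. Of 24 monocyte and interstitial macrophage genes 8 rose and 16 did not pass, including Ccr2 and the growth factor receptor gene Csf1r (0.18 ± 0.09, adjusted p 0.184). Vcan, a proteoglycan gene of classical monocytes, rose by 2.11 ± 0.38 (adjusted p 0.000143). Alveolar macrophage genes gave 1 fall, no rise and a median of 0.001 over 15 genes, and the scavenger receptor gene Marco read 7.66, 7.48, 7.97, 7.72 and 7.73 in low stretch lungs, against 7.12, 7.57, 7.73, 7.55 and 7.53 in non-ventilated lungs. Erythroid genes gave no call among 8, and of 12 mast cell and basophil genes 1 passed. Of 13 platelet genes 4 rose, but none did without low stretch replicate 4, the highest ventilated array for all 13. The count was 2 without low stretch replicate 3 or with the 10 compared arrays alone, and 1 without non-ventilated replicate 5. Tubb1, the platelet tubulin gene, read 9.39, 9.41, 9.57, 10.43 and 9.44, against 9.14, 9.11, 9.04, 8.98 and 8.59, and its adjusted p of 0.0199 became 0.101 without low stretch replicate 4 and 0.0622 without non-ventilated replicate 5.

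Many endothelial genes fell. In the pan-endothelial list 15 of 22 fell and 7 did not pass, Cdh5 and Pecam1 among the latter. Kdr, Tek and Clec14a of the same list fell, as given below. Vwf, of the venous and lymphatic list, did not pass. The junction gene Cdh5 read between 11.96 and 12.06 in low stretch lungs, against 11.94 to 12.08 in non-ventilated lungs, a difference of -0.01 ± 0.05. Pecam1 and Vwf, which encode an adhesion molecule and a clotting protein of endothelium, each differed by -0.06, with SE of 0.05 and 0.09. In contrast, Aplnr, the apelin receptor, read 8.36, 8.26, 8.12, 8.14 and 7.76, against 9.91, 9.71, 9.46, 9.31 and 9.66, with a wide gap between the groups and a change of -1.48 ± 0.14 (adjusted p 3.17e-09).

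Over the pan-endothelial list 15 of 22 fell (68.2%, against 5.17% of all genes), none rose and the median change was -0.36. The VEGF receptor gene Kdr read 10.75, 10.71, 11.11, 11.02 and 11.15 in low stretch lungs, against 11.70, 11.78, 11.67, 11.45 and 11.66 in non-ventilated lungs, a change of -0.71 ± 0.10 (adjusted p 3.41e-06). Clec14a, which encodes a glycoprotein of the vessel wall, fell by 1.07 ± 0.16 (adjusted p 8.95e-06), and the angiopoietin receptor gene Tek by 0.44 ± 0.08 (adjusted p 0.000315). The list mean was 10.35, 10.40, 10.50, 10.42 and 10.32, against 10.78, 10.72, 10.78, 10.73 and 10.77, and no ventilated array reached the non-ventilated range.

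Ligands and receptors of vascular signals were among the falls. Edn1, which encodes the vasoconstrictor endothelin 1, read 8.68, 9.09, 8.97, 8.58 and 8.49 in low stretch lungs, against 9.98, 9.87, 10.16, 10.39 and 10.07 in non-ventilated lungs, a change of -1.33 ± 0.14 (adjusted p 2.31e-08). Apln, the ligand of Aplnr, fell by 0.52 ± 0.11 (adjusted p 0.00199), and the endothelin receptor gene Ednrb by 0.28 ± 0.08 (adjusted p 0.0254). Ednrb no longer passed without low stretch replicate 2 (0.0999) or non-ventilated replicate 3 or 5 (0.0772 and 0.0607), with the 10 compared arrays alone (0.0611) or with array weights (0.0579). The converting enzyme gene Ece1 did not pass (-0.08 ± 0.06, adjusted p 0.456). In the VEGF and angiopoietin list 9 of 16 fell and 1 rose, with 5 falls with the 10 compared arrays alone. Angpt2, an antagonist of Tek, fell by 0.68 ± 0.09 (adjusted p 2.29e-06) and the co-receptor gene Nrp1 by 0.44 ± 0.08 (adjusted p 0.000195), while Flt1 did not pass (-0.22 ± 0.08, adjusted p 0.0724, and 0.0284 without low stretch replicate 2). The riser was Angptl4, described with the fuel genes.

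Arterial genes fell in 10 of 17 cases and Notch genes in 7 of 14, and none in either set rose. The arterial connexin gene Gja5 read 8.01, 8.10, 7.97, 8.04 and 8.40 in low stretch lungs, against 9.56, 9.02, 9.19, 8.92 and 9.78 in non-ventilated lungs, a change of -1.19 ± 0.16 (adjusted p 2.36e-06). Sox17, a factor of arterial endothelium, read 8.38, 8.23, 8.39, 8.23 and 8.49, against 9.00, 9.19, 9.12, 9.22 and 9.10. Both groups were tight and did not overlap, and the change was -0.78 ± 0.11 (adjusted p 2.36e-06). The Notch ligand gene Dll4 fell by 0.65 ± 0.13 (adjusted p 0.000862) and the feedback gene Nrarp by 0.85 ± 0.12 (adjusted p 2.9e-06). The Notch target gene Hes1 fell by 0.52 ± 0.09 (adjusted p 0.000101), while the receptor genes Notch1 (0.05 ± 0.08) and Notch4 (-0.08 ± 0.09) did not pass.

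In the BMP list 9 of 27 fell (33.3%, against 5.17% of all genes) and 2 rose (7.41%, against 6.63%). Smad6, an inhibitor that BMP signalling induces, read 8.85, 9.20, 9.36, 9.06 and 8.79 in low stretch lungs, against 10.05, 10.09, 10.12, 10.18 and 10.32 in non-ventilated lungs, a change of -1.10 ± 0.18 (adjusted p 6.1e-05). Its relative Smad7 fell by 0.74 ± 0.14 (adjusted p 0.000242) and Id1, a direct target, by 0.55 ± 0.12 (adjusted p 0.00179). Tmem100, an endothelial gene that depends on BMP9 signalling in mice, read 11.23, 11.63, 11.63, 11.78 and 11.48, against 12.66, 12.59, 12.88, 12.74 and 13.05, a change of -1.24 ± 0.15 (adjusted p 4.92e-07). The receptor genes Acvrl1 (-0.46 ± 0.09, adjusted p 0.00032) and Eng (-0.38 ± 0.06, adjusted p 8.22e-05) fell, and Bmpr2 did not pass (-0.16 ± 0.06, adjusted p 0.105).

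Of 18 genes that respond to shear or belong to the KLF family, 7 fell and 4 rose. Klf2, the main flow-induced factor of endothelium, read 9.83, 9.90, 9.58, 9.68 and 8.98 in low stretch lungs, against 10.43, 10.45, 10.67, 10.81 and 10.07 in non-ventilated lungs, a change of -0.89 ± 0.15 (adjusted p 0.000101). Replicate 5 was the lowest array in each group. Klf4 fell by 0.55 ± 0.09 (adjusted p 9.92e-05) and the nitric oxide synthase gene Nos3 by 0.34 ± 0.09 (adjusted p 0.00943, and 0.0502 with array weights). The risers included Klf9 (adjusted p 0.000675, and 0.0523 with the 10 compared arrays alone) and Sgk1, which the glucocorticoid list also holds.

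**Figure D3:**
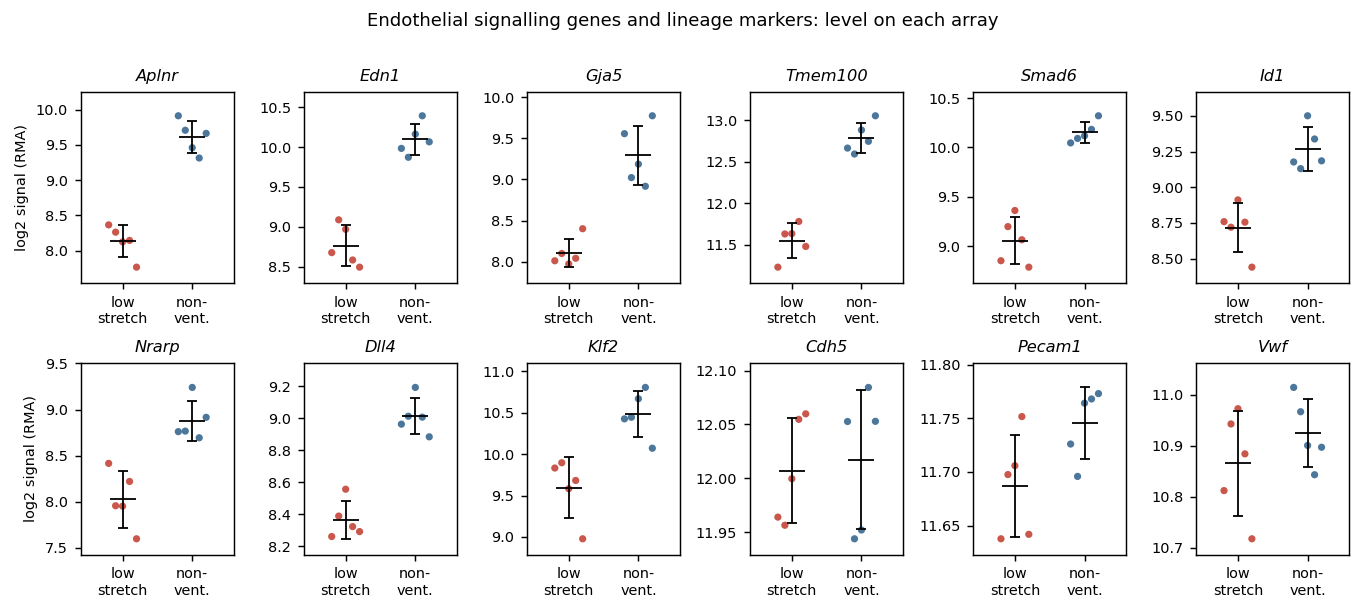
Log2 signal of 12 endothelial genes in each array, with low stretch arrays left and non-ventilated arrays right in each panel, and the mean and SD in black. Aplnr, Edn1, Gja5, Tmem100 and Smad6 are lower in all 5 low stretch arrays, while Cdh5, Pecam1 and Vwf overlap fully.

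Targets of the glucocorticoid receptor rose in 28 of 36 cases (77.8%, against 6.63% of all genes), 1 fell and 7 did not pass, with a median change of 0.53. Fkbp5, the receptor's co-chaperone and feedback inhibitor, read 11.76, 11.50, 11.65, 11.59 and 11.44 in low stretch lungs, against 8.27, 8.52, 9.32, 10.01 and 9.53 in non-ventilated lungs, a change of 2.46 ± 0.18 (adjusted p 1.02e-11). The ventilated values lay close together, and the non-ventilated values spread widely below them. The transcription factor gene Zbtb16 read 11.56, 11.74, 11.85, 11.69 and 11.46, against 9.77, 10.12, 10.73, 11.30 and 11.07, a change of 1.06 ± 0.17 (adjusted p 2.77e-05). Tsc22d3, which encodes the anti-inflammatory protein GILZ, overlapped between groups and rose by 0.41 ± 0.13 (adjusted p 0.0293). Without any 1 of low stretch replicates 1, 2 and 3 or non-ventilated replicates 1 and 2 its adjusted p was between 0.0538 and 0.159, and with the 10 compared arrays alone it was 0.18.

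The list mean was 10.57, 10.50, 10.44, 10.49 and 10.35 in low stretch lungs, against 9.39, 9.48, 9.85, 9.96 and 9.76 in non-ventilated lungs. Among the 28 genes that rose, non-ventilated replicate 4 was the highest of its group in 18 and replicate 1 the lowest in 15. Nr3c1, the receptor itself, fell: it read 9.99, 9.93, 9.92, 9.98 and 9.89, against 10.31, 10.32, 10.47, 10.23 and 10.29, a change of -0.38 ± 0.05 (adjusted p 4.36e-07) without overlap. Per1 and Dusp1, immediate targets of the receptor, did not pass, at 0.23 ± 0.13 and 0.16 ± 0.12.

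Clock genes spread widely within each group. Of 18 measured 1 passed, a rise, and 17 did not, and 3 falls were called when non-ventilated replicate 5 was left out and 2 when low stretch replicate 3 was. Arntl, the positive arm of the clock, read 7.78, 8.88, 7.52, 8.40 and 8.39 in low stretch lungs, against 8.19, 7.11, 6.70, 6.52 and 8.81 in non-ventilated lungs. Dbp, an output gene that cycles in the opposite phase, read 9.23, 7.79, 9.61, 8.66 and 8.20, against 9.45, 10.44, 10.61, 10.40 and 8.58. Non-ventilated replicates 2, 3 and 4 were low in Arntl and high in Dbp, while replicates 1 and 5 lay within the ventilated range. The adjusted p was 0.369 for Arntl and 0.0525 for Dbp, which passed without low stretch replicate 3 (0.0235) or non-ventilated replicate 5 (0.011), and the hour at which each lung was taken is not in the labels.

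Fuel genes rose in 10 of 32 cases (31.2%, against 6.63% of all genes) and none fell. Pdk4, the kinase that turns cells from glucose to fat oxidation, read 10.41, 10.54, 10.22, 10.50 and 10.63 in low stretch lungs, against 8.35, 8.18, 8.65, 9.01 and 8.75 in non-ventilated lungs, a change of 1.87 ± 0.14 (adjusted p 1.02e-11). Angptl4, an inhibitor of lipoprotein lipase, read 10.07, 10.11, 9.91, 9.94 and 9.90, against 8.70, 8.41, 9.06, 9.34 and 9.15. Neither gene overlapped between groups, and Angptl4 changed by 1.05 ± 0.14 (adjusted p 1.72e-06). Foxo3 rose by 0.63 ± 0.09 (adjusted p 1.05e-05) and the insulin receptor substrate gene Irs2 by 0.39 ± 0.09 (adjusted p 0.00346), while Cpt1a, the gate of fatty acids into mitochondria, did not pass (-0.04 ± 0.09, adjusted p 0.866).

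**Figure D4:**
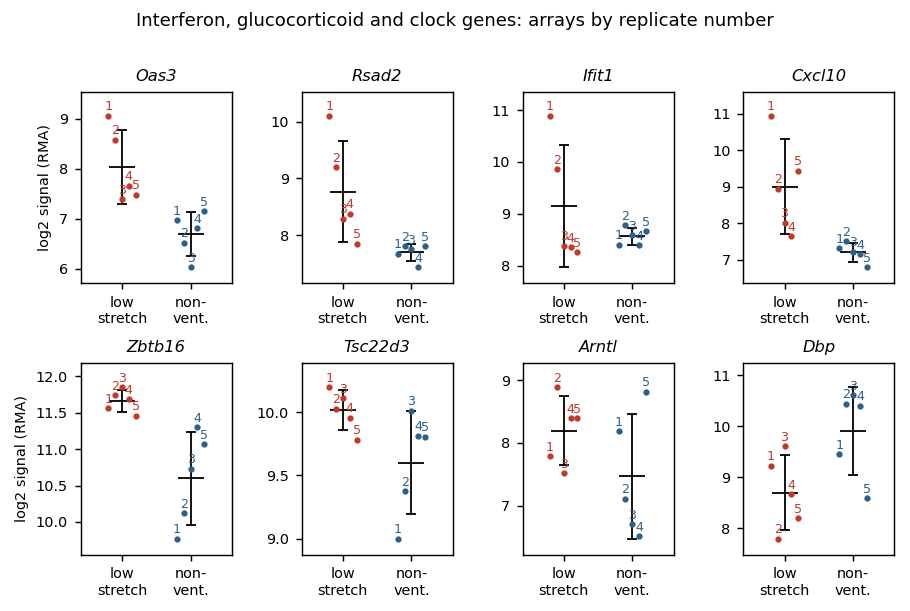
Log2 signal of 8 genes in each array, low stretch left and non-ventilated right, with each point labelled by its replicate number and the mean and SD in black. Low stretch replicate 1 stands highest for Oas3, Rsad2, Ifit1 and Cxcl10, non-ventilated replicate 1 lowest for Zbtb16 and Tsc22d3, and Arntl and Dbp spread in opposite ways within the non-ventilated group.

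Metallothioneins, small proteins that bind zinc and copper and that metals and glucocorticoids both induce, included a pair of genes that rose in every ventilated lung. Their promoters are shown because both genes rose together and metal response elements, which bind the zinc-sensing factor MTF1, are known in metallothionein promoters. The windows come from RefSeq (GRCm38.p6), run from 250 bases before the gene's start to 30 bases after its first base, are on the + strand, and lie at chr8:94178839-94179118 for Mt1 and chr8:94172368-94172647 for Mt2. Capitals mark TGCGCNC or TGCACNC on either strand.
Mt1: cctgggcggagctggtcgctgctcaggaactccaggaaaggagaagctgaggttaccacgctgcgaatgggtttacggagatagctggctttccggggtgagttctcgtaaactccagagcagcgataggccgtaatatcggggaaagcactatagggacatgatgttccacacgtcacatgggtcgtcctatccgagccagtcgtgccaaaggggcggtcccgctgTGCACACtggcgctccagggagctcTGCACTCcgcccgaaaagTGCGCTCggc
Mt2: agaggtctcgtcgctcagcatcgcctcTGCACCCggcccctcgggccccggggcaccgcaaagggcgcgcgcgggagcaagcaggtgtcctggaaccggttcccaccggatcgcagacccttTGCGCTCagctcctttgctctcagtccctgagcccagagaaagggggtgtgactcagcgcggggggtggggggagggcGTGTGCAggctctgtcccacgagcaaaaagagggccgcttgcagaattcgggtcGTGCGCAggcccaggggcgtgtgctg
The motif matched 3 times in the Mt1 window, all on the forward strand, and 4 times in the Mt2 window, 2 on each strand. At least 1 match is in 24.1% of 32851 promoter windows of the same length and at least 3 matches in 1.73%. Among zinc and metallothionein list members with a window, 2 of the 3 that rose and 9 of the 17 that did not pass held a match, and the zinc exporter genes Slc30a4 and Slc30a10, which did not pass, also held 3 each. Slc30a4 passed without non-ventilated replicate 3 (adjusted p 0.0373). These matches are letters in a window and not measured sites.

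Mt2 read 12.69, 12.47, 11.78, 12.05 and 12.93 in low stretch lungs, against 10.77, 10.27, 10.46, 10.57 and 10.27 in non-ventilated lungs, a change of 1.92 ± 0.19 (adjusted p 8.83e-09). Mt1 read 12.58, 12.32, 11.82, 11.96 and 12.56, against 10.68, 10.82, 11.04, 10.87 and 10.59, a change of 1.45 ± 0.16 (adjusted p 5.03e-08). In both genes low stretch replicates 3 and 4 were the lowest ventilated arrays and every ventilated value lay well above every non-ventilated one. The zinc importer gene Slc39a14, which interleukin-6 induces in liver, rose by 1.11 ± 0.18 (adjusted p 5.35e-05). None of 8 zinc exporters passed, and Slc30a1, an MTF1 target in other tissues, differed by -0.17 ± 0.07 (adjusted p 0.118, and 0.0466 without non-ventilated replicate 5).

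Genes of the oxidant response driven by the factor NRF2 rose in 16 of 36 cases (44.4%, against 6.63% of all genes). Of the rest 1 fell and 19 did not pass. Gclc, the catalytic subunit of the first enzyme of glutathione synthesis, read 12.64, 12.02, 11.90, 11.95 and 12.44 in low stretch lungs, against 11.11, 11.32, 11.18, 11.04 and 10.99 in non-ventilated lungs, a change of 1.06 ± 0.11 (adjusted p 1.27e-08). The sulfiredoxin gene Srxn1 read 10.05, 8.96, 8.70, 9.06 and 9.59, against 7.96, 7.79, 7.82, 7.46 and 7.73, a change of 1.52 ± 0.19 (adjusted p 4.84e-07). Low stretch replicates 1 and 5 were the highest for both genes and no ventilated array reached the non-ventilated range. The reductase genes Txnrd1 and Gsr rose by 0.96 ± 0.11 and 0.94 ± 0.13, and the quinone reductase gene Nqo1 by 0.83 ± 0.13 (adjusted p 3.42e-05).

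Hmox1, the heme-degrading enzyme gene, read 11.54, 10.14, 9.63, 9.87 and 11.03 in low stretch lungs, against 8.82, 8.90, 8.83, 8.49 and 8.82 in non-ventilated lungs, a change of 1.67 ± 0.27 (adjusted p 3.36e-05). Low stretch replicates 1 and 5 again led. In the heme and iron list 5 of 22 rose and 2 fell, with 3 rises with the 10 compared arrays alone. The iron exporter gene Slc40a1 rose by 1.30 ± 0.19 (adjusted p 5.63e-06) and the ferritin genes Fth1 (0.07 ± 0.05) and Ftl1 (0.08 ± 0.07) did not pass.

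Genes of the amino acid response, which the factor ATF4 drives, rose in 16 of 27 cases (59.3%, against 6.63% of all genes) and none fell. The promoters of Slc7a11, the cystine importer gene that this list shares with the NRF2 list, and of Asns, the asparagine synthetase gene, are shown because ATF4 acts through paired CEBP-ATF elements. The windows, again from RefSeq (GRCm38.p6) and of the same length, are on the - strand at chr3:50443584-50443863 for Slc7a11 and chr6:7693180-7693459 for Asns, and capitals mark TGATGNAA on either strand.
Slc7a11: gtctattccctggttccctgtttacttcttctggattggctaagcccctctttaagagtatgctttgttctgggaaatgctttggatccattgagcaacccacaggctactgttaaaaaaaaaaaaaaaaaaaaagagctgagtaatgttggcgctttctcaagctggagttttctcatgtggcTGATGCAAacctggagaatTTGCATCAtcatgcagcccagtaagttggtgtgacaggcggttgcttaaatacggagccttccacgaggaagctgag
Asns: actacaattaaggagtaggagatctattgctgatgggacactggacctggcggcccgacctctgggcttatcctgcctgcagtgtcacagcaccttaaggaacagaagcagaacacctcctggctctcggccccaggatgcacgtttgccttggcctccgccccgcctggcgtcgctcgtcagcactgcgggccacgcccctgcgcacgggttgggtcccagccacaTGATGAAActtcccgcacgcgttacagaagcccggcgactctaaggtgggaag
The Slc7a11 window held 2 matches, 1 on each strand, and the Asns window held 1. At least 1 match is in 3.81% of 32851 windows and at least 2 in 0.0578%. Among list members with a window, 3 of the 14 that rose and 4 of the 10 that did not pass held a match.

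Slc7a11 read 11.22, 9.88, 8.61, 9.20 and 10.32 in low stretch lungs, against 6.63, 7.01, 6.41, 6.34 and 6.72 in non-ventilated lungs, a change of 3.23 ± 0.31 (adjusted p 4.49e-09). The ventilated arrays spread over more than 2 units, with replicates 1 and 5 highest, and the lowest was still well above every non-ventilated array. Asns read 10.28, 9.84, 9.82, 9.90 and 10.23, against 9.44, 9.36, 9.51, 9.32 and 9.39, a smaller change of 0.61 ± 0.11 (adjusted p 0.000137) without overlap. The leucine transporter gene Slc7a5 rose by 1.11 ± 0.13 (adjusted p 1.54e-07) and the folate enzyme gene Mthfd2 by 1.14 ± 0.19 (adjusted p 5.47e-05).

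Atf4 itself rose by 0.30 ± 0.08 (adjusted p 0.0122), but did not pass without low stretch replicate 1 (0.0627) or non-ventilated replicate 4 (0.0527) or with the 10 compared arrays alone (0.0853), and Ddit3, the stress factor CHOP, did not pass (-0.03 ± 0.09, adjusted p 0.917). The list mean was 8.94, 8.56, 8.53, 8.55 and 8.68 in low stretch lungs, against 8.13, 8.12, 8.18, 8.17 and 8.11 in non-ventilated lungs, with low stretch replicate 1 highest. Chaperones of the endoplasmic reticulum rose in 3 of 21 cases, and in 1 with the 10 compared arrays alone, and the chaperone gene Hspa5 did not pass (0.10 ± 0.09, adjusted p 0.589). Cytosolic heat shock genes rose in 1 of 19. Hspa1a was highest in low stretch replicate 1: it read 10.35, 8.43, 7.68, 8.36 and 8.66, against 7.24, 7.22, 7.68, 7.57 and 7.88 (adjusted p 0.124).

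Of 24 growth arrest and p53 target genes 12 rose, a larger share than the 6.63% of all genes, and 1 fell. The list members Cdkn1a, Bax, Btg3 and Trp53 were not analysed here. Gadd45a, a stress-induced arrest gene, read 9.62, 9.14, 9.00, 9.22 and 9.28 in low stretch lungs, against 8.34, 8.22, 8.16, 7.98 and 8.39 in non-ventilated lungs, a change of 1.03 ± 0.15 (adjusted p 6.22e-06). Mdm2, the p53 ligase gene and a direct target, rose by 0.20 ± 0.05 (adjusted p 0.00999, and 0.093 with the 10 compared arrays alone), while Ccng1 (0.02 ± 0.07) and Bbc3 (-0.03 ± 0.09), also direct targets, did not pass. In the hypoxia and glycolysis list 10 of 31 rose (32.3%, against 6.63% of all genes) and 1 fell. The mitophagy receptor gene Bnip3 read 10.95, 10.90, 10.83, 10.78 and 10.81, against 9.83, 10.18, 10.18, 10.27 and 10.19, a change of 0.72 ± 0.08 (adjusted p 1.33e-07). The glucose transporter gene Slc2a1 rose by 0.77 ± 0.15 (adjusted p 0.000457), and Egln3, a prolyl hydroxylase gene induced by hypoxia, did not pass (-0.08 ± 0.15, adjusted p 0.818).

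Immediate-early genes, which respond to stretch and growth factors within minutes, mostly did not pass. Of 10 EGR and NR4A genes none rose and 1 fell, and Egr1 read 8.30, 7.51, 7.68, 7.62 and 7.52 in low stretch lungs, against 8.27, 8.62, 8.10, 7.68 and 8.06 in non-ventilated lungs (-0.42 ± 0.26, adjusted p 0.357). Of 12 AP-1 genes 5 rose. Maff rose by 0.90 ± 0.18 (adjusted p 0.000572) and Fosl2 by 0.82 ± 0.20 (adjusted p 0.0052), while Fos (0.21 ± 0.24) and Jun (-0.04 ± 0.08) did not pass. The whole list's count of rises was 5 and became 3 without low stretch replicate 1 or 2 or non-ventilated replicate 3 or 4, while with the 10 compared arrays alone it was 3 and the list's 3 falls became 1. Of 14 MAP kinase feedback genes none rose and 2 fell.

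Targets of the stretch-sensing factors YAP and SRF rose in 1 of 23 cases and fell in 4. The muscle ankyrin gene Ankrd1 (-0.38 ± 0.24, adjusted p 0.364) and Amotl2 (-0.29 ± 0.13, adjusted p 0.166) did not pass. Myc rose by 0.67 ± 0.16 (adjusted p 0.00496, and 0.0701 with the 10 compared arrays alone). In the MYC and ribosome biogenesis list 6 of 40 rose, and 3 without low stretch replicate 1 or 5 or non-ventilated replicate 2 or 4 and 2 with the 10 compared arrays alone, and the ribosome assembly genes Nop56 (0.14 ± 0.09) and Ncl (0.06 ± 0.08) did not pass.

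Most interferon-stimulated genes did not pass. Of 23 measured 2 passed, both rises (8.7%, against 6.63% of all genes). Low stretch replicate 1 was the highest ventilated array for all 23. Oas3, an activator of antiviral RNase L, read 9.06, 8.58, 7.39, 7.66 and 7.48 in low stretch lungs, against 6.97, 6.52, 6.03, 6.81 and 7.15 in non-ventilated lungs, a change of 1.34 ± 0.32 (adjusted p 0.00427). Ifit1 read 10.89, 9.86, 8.39, 8.36 and 8.26, against 8.40, 8.78, 8.59, 8.39 and 8.66, so that replicates 3, 4 and 5 lay at the low end of the non-ventilated range or below it (adjusted p 0.556). Oas2 passed at an adjusted p of 0.0114 and at 0.0617 without low stretch replicate 1, which left 1 rise in the list. The list mean was 9.46, 8.75, 8.01, 8.00 and 8.12, against 8.05, 8.07, 7.93, 7.84 and 8.01. The lymphocyte chemokine gene Cxcl10, of the same list, read 10.95, 8.95, 8.02, 7.64 and 9.44, against 7.32, 7.50, 7.22, 7.16 and 6.79, and did not pass (1.80 ± 0.67, adjusted p 0.0788) although its groups did not overlap. It passed without low stretch replicate 4 (0.0452) and with the 10 compared arrays alone (0.0428).

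Coagulation genes rose in 5 of 21 cases (23.8%, against 6.63% of all genes) and fell in 2 (9.52%, against 5.17%). The rises numbered 3 without low stretch replicate 1 or 4 and 2 without low stretch replicate 5 or non-ventilated replicate 1. The factor X gene F10 read 9.93, 9.46, 8.25, 8.60 and 9.27 in low stretch lungs, against 7.46, 7.36, 7.56, 7.41 and 8.13 in non-ventilated lungs, a change of 1.52 ± 0.30 (adjusted p 0.000552). The urokinase gene Plau fell by 0.46 ± 0.12 (adjusted p 0.00909). Of 31 genes of prostaglandin and leukotriene metabolism 7 rose and 3 fell, with 1 fall without low stretch replicate 2, and with 4 rises and 1 fall with the 10 compared arrays alone. Alox5ap, the partner of 5-lipoxygenase in leukotriene synthesis, read 10.29, 10.17, 10.04, 10.33 and 10.33, against 9.22, 8.96, 9.14, 8.80 and 9.90, a change of 1.03 ± 0.17 (adjusted p 6.07e-05). The cyclooxygenase gene Ptgs2 read 11.03, 9.28, 8.81, 9.34 and 9.52, against 8.65, 9.07, 8.81, 8.30 and 8.49, and its adjusted p of 0.0157 became 0.0943 without low stretch replicate 1 and 0.119 with the 10 compared arrays alone.

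Metalloproteinase genes rose in 6 of 22 cases and fell in 1, with 3 rises without low stretch replicate 1. Besides Mmp8 and Mmp9, the leukocyte sheddase gene Adam8 rose by 0.90 ± 0.20 (adjusted p 0.00174), while the inhibitor genes Timp1 (0.50 ± 0.23, adjusted p 0.191) and Timp3 (0.08 ± 0.08, adjusted p 0.611) did not pass.

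Most epithelial genes did not pass, as was so for all genes, of which 11.8% passed. The alveolar type 2, alveolar type 1 and club and goblet lists held larger shares of falls than all genes. In the alveolar type 2 list 1 of 25 rose and 6 fell (24.0%, against 5.17% of all genes). Lpcat1, which remodels surfactant phosphatidylcholine, read 10.83, 10.90, 11.08, 11.01 and 10.67 in low stretch lungs, against 11.63, 11.56, 11.21, 11.23 and 11.17 in non-ventilated lungs, a change of -0.47 ± 0.11 (adjusted p 0.00256). The surfactant genes Sftpb (-0.07 ± 0.05), Sftpa1 (0.02 ± 0.04) and Sftpd (-0.11 ± 0.06) did not pass. Of 18 alveolar type 1 genes 4 fell (22.2%), and 2 without low stretch replicate 1 or with the 10 compared arrays alone. Ager, a receptor gene that marks these cells, did not pass (-0.01 ± 0.05). In the club and goblet list 3 of 19 fell (15.8%), and 5 without non-ventilated replicate 5. The secretoglobin gene Scgb3a2 changed by -0.35 ± 0.09 (adjusted p 0.00923) and Scgb1a1 by 0.00 ± 0.05 (adjusted p 0.977). Cilia genes fell in 2 of 26 cases (7.69%), and in none without low stretch replicate 5 or non-ventilated replicate 1. The count was 1 without low stretch replicate 2 or 4 or non-ventilated replicate 2 or 3.

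Among 23 genes of fluid clearance and ion transport 4 rose and 2 fell, with no fall without low stretch replicate 1 and 1 without low stretch replicate 2 or 5 or non-ventilated replicate 1, 2 or 5. The sodium pump subunit gene Atp1b1 read 11.59, 11.65, 11.56, 11.70 and 11.43 in low stretch lungs, against 11.16, 11.32, 11.42, 11.41 and 11.25 in non-ventilated lungs, a change of 0.27 ± 0.06 (adjusted p 0.00224). The sodium channel genes Scnn1a (0.06 ± 0.09), Scnn1b (-0.10 ± 0.09) and Scnn1g (0.16 ± 0.08) did not pass.

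Of 33 fibroblast and matrix genes 1 rose and 3 fell, 12.1% in all against 11.8% of all genes, among them Tcf21, a lung fibroblast factor gene (-0.50 ± 0.14, adjusted p 0.0152), while the collagen genes Col1a1 (-0.06 ± 0.15) and Col3a1 (-0.11 ± 0.17) did not pass. None of 20 pulmonary vein cardiac muscle genes and none of 26 respiratory chain genes passed at an adjusted p under 0.05, and limma's p before adjustment was under 0.05 in 0 cardiac muscle genes and 0 respiratory chain genes. Smooth muscle genes fell in 3 of 20 cases (15.0%, against 5.17% of all genes), in 1 with the 10 compared arrays alone and in 5 after a second quantile normalization. Cell cycle genes fell in 3 of 35 cases (8.57%, against 5.17% of all genes), and 1 rose. The falls became 1 without low stretch replicate 1 or 2 or with the 10 compared arrays alone. Of 30 cholesterol genes 6 rose (20.0%, against 6.63% of all genes), and 3 without non-ventilated replicate 2 or with the 10 compared arrays alone.

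**Figure D5:**
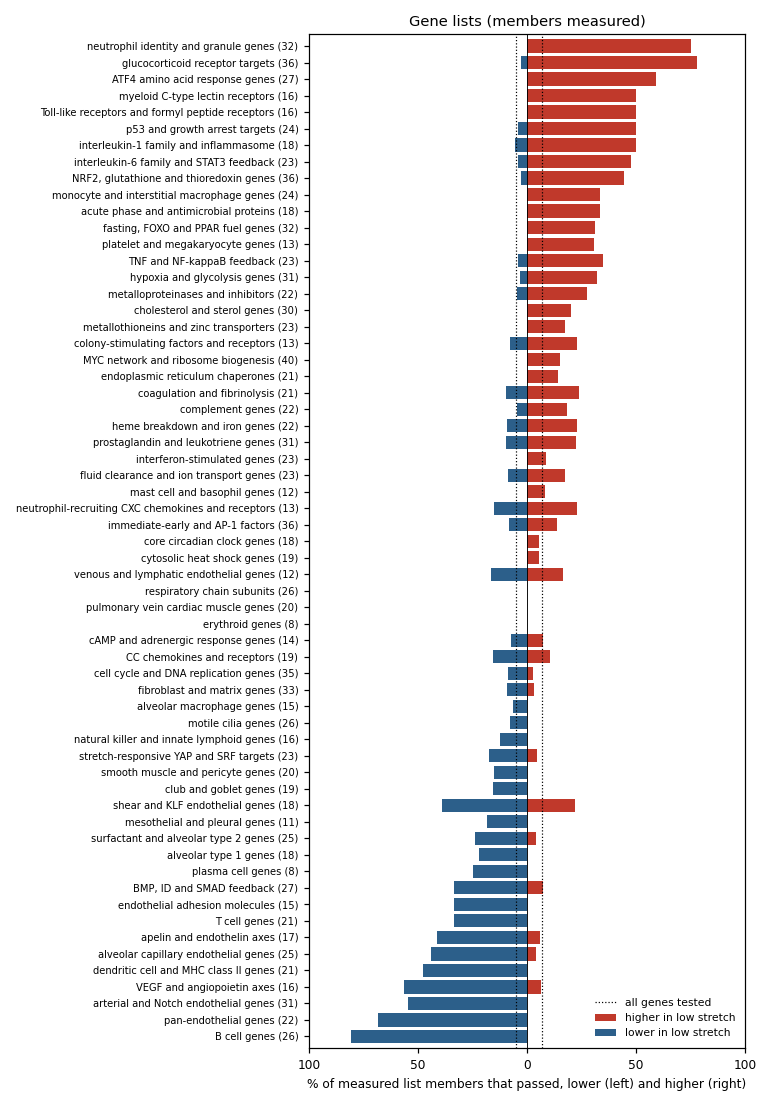
Percent of measured members of each of 61 gene lists that were called higher (right) or lower (left) in low stretch lungs, with dotted lines at the shares over all genes, 6.63% and 5.17%. The B cell list (80.8% lower) and the glucocorticoid list (77.8% higher, 2.78% lower) lie farthest out on their sides, and the respiratory chain, cardiac muscle and erythroid lists have no called member.

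The other ventilated groups give the same genes side by side, as a description, since they would be set against the same non-ventilated arrays. Mmp8 averaged between 10.91 and 11.07 in the 4 ventilated groups, against 6.86 in non-ventilated lungs. Fkbp5 averaged 11.59, 11.74, 11.44 and 11.65 in the low stretch normocapnia, low stretch hypercapnia, high stretch normocapnia and high stretch hypercapnia groups, against 9.13 in non-ventilated lungs. Aplnr averaged 8.13, 8.12, 7.89 and 7.86 in the same order, against 9.61 in non-ventilated lungs. For these 3 genes the means of the ventilated groups lay close together and apart from the non-ventilated mean. Il6 averaged 4.40 in low stretch normocapnia lungs and 4.64 in low stretch hypercapnia lungs, against 7.70 and 7.36 in the high stretch groups without and with added CO2, and 4.33 in non-ventilated lungs.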

How the data were processed

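Lung RNA of 35 mice was hybridised to Affymetrix arrays, 1 per animal. The authors deposited log2 signals of 35557 probe sets. RMA, Affymetrix Expression Console and Partek are named in the submitters' processing notes, with no version or role, and the annotation build is not given in the sources used here. Of the probe sets, 21789 carried 1 gene symbol, 1621 several and 12147 none. For each of 19938 genes the probe set with 1 symbol and the highest mean over all arrays was used, with no filter on level.

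Group means of all 5 groups were fitted with limma 3.58.1 in R 4.3.3 (lmFit, eBayes), and low stretch normocapnia minus non-ventilated was tested two-sided, with Benjamini-Hochberg adjustment over all genes and a threshold of 0.05. Sharing 35 arrays gives 30 residual degrees of freedom. Errors beside changes are SE from this fit, which pools the spread of all 5 groups. The fit was also run on simulated data in which a gene had the same SD in every group, so that run does not cover groups of unequal spread. Alternatives were the 10 compared arrays alone, a replicate block, array weights, trended robust variances, a level filter, other probe set rules, centring, a further quantile normalization and leaving out each array.

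The 61 gene lists, with 1207 distinct measured genes, were chosen with earlier results of these data known, as were the members, so list counts carry no test. Lists share members, since the 1207 genes fill 1345 list places, so counts of related lists are not independent. The text names the 30 largest rises and falls, and other names were drawn from each list's 6 largest passed members per direction and from defining members that did not pass. Outside that rule, after their values were seen, were named Asns, Atf4, Bbc3, Blk, Bmpr2, Camp, Ccng1, Clec7a, Cxcl10, Cxcr5, Dbp, Ece1, Ednrb, Elane, Eng, Gsr, Hes1, Hp, Il6ra, Irs2, Ltf, Mdm2, Mpo, Nfkbia, Nqo1, Slc30a4, Slc30a10, Stat3, Timp1, Timp3, Tnfaip3, Tsc22d3 and Zbtb16.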

Additional observations from a re-analysis of the deposited data

Results flagged for a closer look

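In each group of 5 arrays, the highest or lowest value of every gene named in the text was set against its neighbour by Dixon's criterion, which chance meets in about 1 of 20 groups. Of 464 groups, 29 met it (6.25%), and the cause of these values was not tested.

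Non-ventilated replicate 5 was far above the rest of its group in 5 genes. It read 7.95 for Ccr1, where the next value was 6.33, 7.65 for Dhrs9 (next 6.33), 7.29 for Rdh12 (next 6.18), 9.46 for Cd33 (next 8.62) and 8.13 for F10 (next 7.56). It was also the low array for Slc7a5, at 7.57, with the next at 8.00.

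Non-ventilated replicate 1 was the high array for 4 B cell genes, at 8.07 for Blk, 9.22 for Cd79a, 9.29 for Cd79b and 7.73 for Cr2, where the next values were 7.60, 8.62, 8.68 and 7.01, and for Fcmr, at 8.69 (next 8.13). It was the low array for Bnip3, at 9.83 (next 10.18), and for Nos3, at 7.44 (next 7.67). Non-ventilated replicate 3 was low for Col3a1 at 10.64 and high for Fosl2 at 8.70 and Il33 at 10.61. Replicate 2 was low for Nop56 at 9.62 and replicate 4 low for Hmox1 at 8.49 and Nuak1 at 7.93.

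Among low stretch arrays, replicate 1 was high for Egr1 at 8.30, Jun at 11.41, Icam1 at 11.36 and Csf1 at 8.98, none of which passed. Replicate 5 was high for Ccr7 at 8.03 and Ciita at 7.36 and low for Hp at 12.50. Replicate 4 was high for Tubb1 at 10.43, replicate 2 low for Ednrb at 9.32 and replicate 3 low for Bnc1 at 6.15, with the next at 6.22.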

How the results depend on the processing

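With the 10 compared arrays alone, 1385 genes were called in place of 2353, 782 higher in place of 1322 and 603 lower in place of 1031. Of those 1385, 1326 were among the 2353 (95.7% of the smaller set and 56.4% of the larger). That fit has fewer residual degrees of freedom, and takes its spread from the compared groups only. The main fit shares 1 spread per gene over all 5 groups. Where the groups differ in spread, its SE and p do not describe the spread of the 10 compared arrays. Fkbp5, for example, had an SD of 0.72 in non-ventilated lungs and of 0.10 to 0.21 in the ventilated groups. Under the other settings the counts over all genes moved by less than 1.5 times: leaving out 1 array gave 1749 to 2405 called genes, with 1007 to 1375 higher and 737 to 1116 lower. Of 154 genes named as changed, 146 remained called with the 10 arrays alone, 152 with array weights (Ednrb and Nos3 were lost) and 154 with the second quantile normalization, the replicate block and centred arrays, and no direction turned under any setting. Of 50 list counts of 3 or more, 15 moved by over 1.5 times with the 10 arrays alone, among them T cell falls (2 in place of 7) and VEGF and angiopoietin falls (5 in place of 9). Array weights gave 4 apelin and endothelin falls in place of 7, and a filter that kept only genes above the median level left 7 of the 21 B cell falls.

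Same-numbered arrays of both groups deviated together at r of 0.017, 0.145, 0.163, 0.091 and 0.189. The mean r with the other numbers was lower in each case, at -0.007, -0.036, -0.027, -0.019 and -0.060. Of 5 low stretch arrays 2 correlated best with their own number. The labels give no pairing, and the numbers were not taken to pair the animals in the main fit. The replicate block called 2361 genes, of which 2204 were among the 2353, and named Cxcl2 in addition (adjusted p 0.0469). The number of arrays limits the precision. Genes of low signal, such as Il6, are compressed towards background, and 1 probe set stands for each gene.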

Other observations

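Capillary endothelium of the alveoli holds general capillary cells and aerocytes, the wide flat cells at the gas exchange surface. Of 14 general capillary genes 5 fell (35.7%, against 5.17% of all genes) and 1 rose. Of 11 aerocyte genes 6 fell (54.5%) and none rose. These counts overlap with those of other lists. The general capillary falls include Aplnr, Tek and Cxcl12, and the aerocyte falls include Kdr, Apln and Ednrb, all given earlier. Glp1r, the receptor of the gut hormone GLP-1, read 9.85, 9.35, 10.12, 10.00 and 9.60 in low stretch lungs, against 10.74, 10.81, 10.73, 10.79 and 10.78 in non-ventilated lungs, a change of -0.99 ± 0.16 (limma adjusted p 2.97e-05). The non-ventilated values lay almost on top of each other and above every ventilated one. The aerocyte factor gene Tbx2 fell by 0.45 ± 0.09 (adjusted p 0.000334), the rise was Cd93 (0.31 ± 0.07, adjusted p 0.00187), and Gpihbp1, which anchors lipoprotein lipase on capillaries, did not pass (0.07 ± 0.09, adjusted p 0.722).

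In the venous and lymphatic list 2 of 12 rose and 2 fell. The venous factor gene Nr2f2 read 9.68, 9.75, 9.78, 9.73 and 9.72 in low stretch lungs, against 10.31, 10.55, 10.24, 10.20 and 10.23 in non-ventilated lungs, a change of -0.57 ± 0.09 (adjusted p 4.22e-05) with no overlap. The count of rises was 5 without non-ventilated replicate 3, 3 without low stretch replicate 5, and 1 without low stretch replicate 1, 3 or 4 or non-ventilated replicate 1 or 2. Of 11 mesothelial genes 2 fell, among them the factor gene Bnc1, which read 6.22, 6.25, 6.15, 6.22 and 6.23, against 7.12, 7.08, 6.91, 6.79 and 6.98 (adjusted p 2.98e-05). Of 22 complement genes 4 rose and 1 fell, and the rises included the C5a receptor gene C5ar1 (1.17 ± 0.17, adjusted p 1.05e-05) and Itgam, an integrin gene of neutrophils and monocytes (1.65 ± 0.25, adjusted p 1.16e-05). Plasma cell genes fell in 2 of 8 cases, and 1 cAMP response gene of 14 rose and 1 fell.

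Among the 30 largest rises were genes outside the neutrophil list. Acod1, which makes the antimicrobial metabolite itaconate in activated myeloid cells, read 10.39, 9.51, 7.99, 8.59 and 8.14 in low stretch lungs, against 6.53, 6.25, 5.73, 6.39 and 6.74 in non-ventilated lungs, with low stretch replicates 1 and 2 highest. A pair of retinol dehydrogenase genes rose, Dhrs9 by 2.47 ± 0.28 (adjusted p 1.53e-07) and Rdh12 by 2.23 ± 0.27 (adjusted p 4.36e-07), and in both non-ventilated replicate 5 was the highest of its group. The 30 largest falls held a pair of SOX factor genes. Sox11 read 6.95, 6.97, 7.15, 6.99 and 7.06 in low stretch lungs, against 7.90, 8.10, 8.31, 7.82 and 7.97 in non-ventilated lungs, and the endothelial factor gene Sox7 fell by 0.92 ± 0.12 (adjusted p 9.26e-07).

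The other genes among the 30 largest rises changed by 1.92 to 3.50 log2 units. Those of the neutrophil list were the resistin-like gene Retnlg (3.50 ± 0.39), the lectin receptor genes Clec4e (3.38 ± 0.47) and Clec4d (3.24 ± 0.37) and Slfn4 (3.14 ± 0.51), beside Ngp. Outside that list were Ifitm6, Ms4a4a, Wfdc17, Ly6a2, Ms4a6d, Cd33, Lilr4b and Slfn1, at adjusted p of 0.00112 or less. The other genes among the 30 largest falls changed by -1.41 to -0.93. The B cell list held the receptor gene Fcer2a (-1.41 ± 0.19), the B cell receptor chain gene Cd79a (-1.36 ± 0.18), the scaffold gene Bank1 (-1.34 ± 0.18) and the factor gene Spib (-0.96 ± 0.12). The others were Lbh, Ly6d, Myct1, Sh3rf2, Ccn5, Nuak1, Kank4, Fcmr, Samd5, Gbp4 and Ripply3, at adjusted p of 0.0157 or less, and Gbp4 did not pass without non-ventilated replicate 2 (0.0575).

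Some genes with small adjusted p, chosen after their values were seen, belong to no list. Ampd3, an AMP deaminase gene, read 10.38, 10.44, 10.24, 10.41 and 10.21 in low stretch lungs, against 8.72, 8.73, 8.99, 8.96 and 9.24 in non-ventilated lungs, a change of 1.41 ± 0.08 (adjusted p 9.76e-14). The ubiquitin ligase adaptor gene Klhl2 rose by 0.96 ± 0.07 (adjusted p 4.16e-11), and both genes lacked overlap between groups. The mitochondrial arginase gene Arg2 rose by 1.65 ± 0.16 (adjusted p 4.07e-09), and Doc2b, a calcium sensor gene of vesicle fusion, by 1.58 ± 0.15 (adjusted p 4.25e-09).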
